A study of Mus musculus with 16 samples.

Results

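The Gadd45 family consists of Gadd45a, Gadd45b and Gadd45g, and these 3 of the 22375 genes in the deposited tables were taken by symbol and identifier. The 3 genes encode small acidic proteins that have no enzymatic activity of their own and act by binding others. Their known partners are the kinase Map3k4, which feeds the p38 and JNK stress pathways, the cyclin B1/Cdk1 complex, the replication clamp Pcna, the Cdk inhibitor p21 (Cdkn1a) and proteins of excision repair and active DNA demethylation, among them the glycosylase Tdg. Gadd45a is a textbook target of p53 and of stress factors such as Atf4, whereas Gadd45b, first found as a myeloid differentiation gene, and Gadd45g, first found as a cytokine response gene, are better known as targets of NF-kB, TGF-beta and cytokine signalling.

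The libraries came from mouse ES cells, untreated or given doxorubicin, a topoisomerase II poison that breaks DNA, at 1 μM for 6 hours. The treatment protocol gives that dose, whereas the treatment tag of each treated sample reads 1 mM. WT cells were the E14TG2a line of strain 129/OLA, and Cfp1-/- cells lacked Cfp1 (gene symbol Cxxc1), a CpG-binding subunit of the Set1 histone H3K4 methyltransferase complexes. Both were grown on gelatin with serum and LIF. Each of the 4 groups (WT untreated, WT doxorubicin, Cfp1-/- untreated and Cfp1-/- doxorubicin) held 2 biological replicates, each sequenced as 2 technical replicates of an rRNA-depleted, strand-specific library. Each genotype was represented by 1 line, so that the mutation and other differences between these lines cannot be told apart. P-values measure the spread between these cultures only.

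Cxxc1 had 616 to 1412 counts in the 4 WT libraries and 1 to 5 in the 4 Cfp1-/- libraries, as the labels say. Total counts were 23383421 to 29422711 in untreated and 14880589 to 18551086 in treated libraries. All 10 ES cell markers examined averaged at least 200 normalised counts in every group. Their summed normalised count was 84881 to 112107 in untreated and 31398 to 43702 in treated libraries. Single ES cell markers differed between the lines. Untreated, 2 of the 10 were called higher in Cfp1-/- cells (Nanog and Utf1) and 4 lower (Pou5f1, Lin28a, Zfp42 and Tdgf1), against 17.9% and 16.1% of all genes tested. Under doxorubicin 1 was called higher (Nanog) and 1 lower (Pou5f1), against 15.1% and 10.8%. Some sums of markers of other cell types differed between the lines as well as with treatment. Summed fibroblast or feeder markers were 203 to 237 in WT and 60.8 to 62.1 in Cfp1-/- untreated libraries, and 349 to 511 and 297 to 349 in treated ones. Primitive endoderm markers summed to 57.3 to 68.0 in WT and 177 to 206 in Cfp1-/- untreated libraries, and to 243 to 274 and 496 to 539 in treated ones. Pdgfra made up most of the Cfp1-/- sums and was the only 1 of the 4 tested that was called between the lines. It had 22.9 and 32.3 normalised counts in WT and 125 and 183 in Cfp1-/- untreated libraries. Gata4 went the other way there, with 20.4 and 11.5 in WT and 5.6 and 5.9 in Cfp1-/-. Neural markers summed to 2789 to 3782 in WT and 823 to 1191 in Cfp1-/- untreated libraries, and to 1171 to 3357 and 534 to 586 in treated ones. Mesoderm markers, of which Mesp1 was at 0 in untreated WT libraries, summed to 126 to 349 untreated and 144 to 193 treated. The part of these shifts in the results below was not tested, neither for doxorubicin nor between the lines. In bulk RNA, fewer cells that express a gene and less RNA per cell cannot be told apart.

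The 250 bases before the transcription start that RefSeq gives each gene are shown so that the short elements they hold can be seen. They come from the RefSeq promoter table (GRCm38.p6). In the NCBIM37 assembly that the deposited tables use, each matched 1 place on its own chromosome in the gene's orientation. Other chromosomes were not searched. Positions count back from that start, which differs slightly from the outer end of the gene spans printed below. The Gadd45a window overlaps the outermost bases of its span, and the Gadd45g window ends a few bases before its own. Gadd45a lies on the minus strand and Gadd45b and Gadd45g on the plus strand. The windows are chr6:66987402-66987651, chr10:80392586-80392835 and chr13:51941794-51942043. Each sequence reads 5′ to 3′ towards the gene, and capitals mark the NF-Y, TATA, GC and E-boxes and the octamer spelled out below, on either strand.
Gadd45a: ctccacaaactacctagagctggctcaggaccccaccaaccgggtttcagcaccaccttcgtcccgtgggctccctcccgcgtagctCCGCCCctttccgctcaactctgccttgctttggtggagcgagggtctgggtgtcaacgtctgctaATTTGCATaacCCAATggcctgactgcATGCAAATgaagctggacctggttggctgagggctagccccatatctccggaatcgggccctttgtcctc
Gadd45b: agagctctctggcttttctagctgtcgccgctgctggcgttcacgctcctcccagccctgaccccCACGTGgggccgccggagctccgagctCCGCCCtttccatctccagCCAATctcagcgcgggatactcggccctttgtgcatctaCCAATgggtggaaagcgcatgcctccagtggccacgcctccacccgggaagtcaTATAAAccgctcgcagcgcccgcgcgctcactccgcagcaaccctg
Gadd45g: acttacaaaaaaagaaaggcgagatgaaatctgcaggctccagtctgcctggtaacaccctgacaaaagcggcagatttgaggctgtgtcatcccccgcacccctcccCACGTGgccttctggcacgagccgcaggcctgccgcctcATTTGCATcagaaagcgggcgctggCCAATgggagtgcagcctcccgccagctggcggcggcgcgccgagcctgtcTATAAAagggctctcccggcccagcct
CCAAT, the box bound by NF-Y, was found once upstream of Gadd45a and of Gadd45g and 2 times upstream of Gadd45b, and 33.85% of the 32851 promoters of the table hold it. TATAAA (12.37% of promoters) and the E-box CACGTG (6.02%) stood upstream of Gadd45b and Gadd45g but not of Gadd45a. The GC box GGGCGG (32.74%) stood upstream of Gadd45a and Gadd45b. The octamer ATTTGCAT, which POU factors bind, was searched for only after the sequences had been read. It occurred 2 times upstream of Gadd45a, from -97 to -90 and from -70 to -63 on either side of the CCAAT box at -86 to -82, and once upstream of Gadd45g, against 1.6% of all promoters. TGACGTCA (1.55%), GCGGGGGCG (2.57%), GGACTTTCC (0.28%) and TTCNNNGAA (7.02%) were in none of the 3 windows. The windows held 11, 22 and 16 CpG dinucleotides for Gadd45a, Gadd45b and Gadd45g, against a median of 6 over all promoters.

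Gadd45a (ENSMUSG00000036390) spans chr6:66985090-66987451, Gadd45b (ENSMUSG00000015312) chr10:80392836-80394949 and Gadd45g (ENSMUSG00000021453) chr13:51942047-51943837 in NCBIM37. Their coding transcripts each have 4 exons and encode 165, 160 and 159 codons. The coding sequences were 60.6% identical between Gadd45a and Gadd45b, 62.2% between Gadd45a and Gadd45g and 65.3% between Gadd45b and Gadd45g. The longest run of bases shared by any pair was 17. Gadd45a overlaps an antisense transcript, E230016M11Rik, and the authors counted reads by strand.

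Gadd45a was the most abundant of the 3 transcripts in all 8 libraries. Its mean level per kb of exon (normalised count divided by exon length) was 1169 ± 175 (SD, n = 2) in WT untreated, 771 ± 158 in WT doxorubicin, 402 ± 91.5 in Cfp1-/- untreated and 337 ± 129 in Cfp1-/- doxorubicin cells. These levels stood above 91.5%, 90.4%, 77.7% and 77.2% of the 15752 tested genes with a known length. Gadd45b reached 165 ± 24.3, 147 ± 67.8, 120 ± 6.89 and 39.7 ± 28.2 per kb in the same order of groups, and Gadd45g 127 ± 39.2, 87.8 ± 51.5, 136 ± 22.0 and 92.0 ± 13.9. Gadd45b and Gadd45g thus lay near the middle of the tested genes, between the 46.5th and 60.5th percentile, except for Gadd45b in Cfp1-/- doxorubicin cells at the 31.8th percentile. Within each of the 4 WT libraries Gadd45b was above Gadd45g per kb, although the ranges of the 2 genes overlapped across libraries. In Cfp1-/- untreated cells Gadd45b (125 and 115 per kb) was above Gadd45g (121 and 152) in replicate 1 only. In Cfp1-/- doxorubicin cells, Gadd45b (19.8 and 59.7 per kb) was below Gadd45g (82.2 and 102) in both libraries.

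Counted per kb, Gadd45a made up 67.4% to 85.4% of the family's transcripts in the 4 WT libraries and 55.8% to 72.6% in the 4 Cfp1-/- libraries. The share of Gadd45g was 4.97% to 12.7% in WT and 17.0% to 25.1% in Cfp1-/- libraries, with no overlap between the lines. A share depends on the levels of all 3 genes, and the level of Gadd45g itself did not pass the test between the lines.

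**Figure D1:**
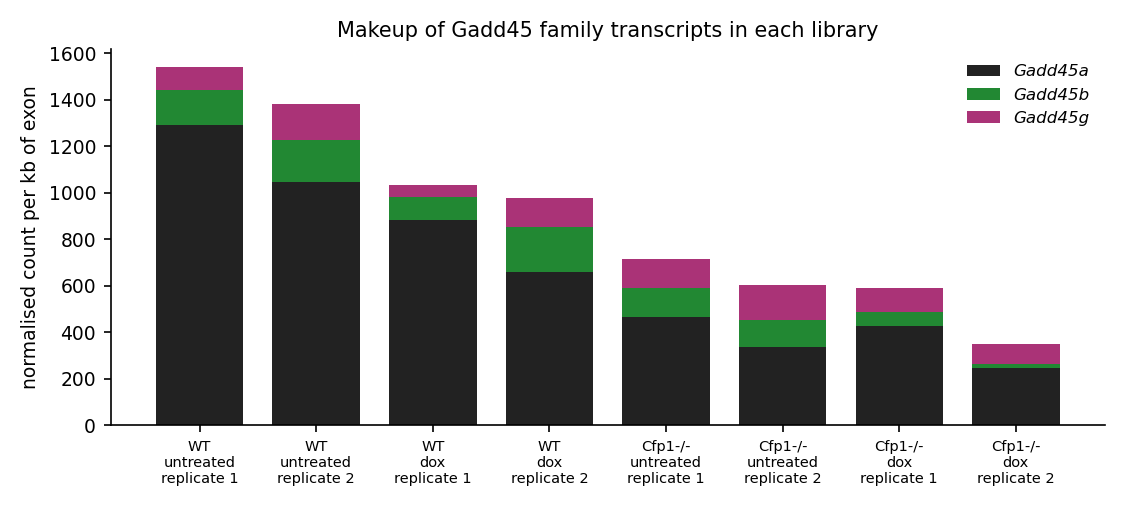
Normalised count per kb of exon of Gadd45a, Gadd45b and Gadd45g, stacked for each of the 8 libraries. The Gadd45a block is the tallest in every library, and the stacks of the 4 Cfp1-/- libraries are lower than those of the 4 WT libraries.

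The main question of the design is how the line without Cfp1 differs from WT in its response to doxorubicin, and the first comparison is between the untreated lines. Untreated Cfp1-/- cells held 0.351 times as much Gadd45a transcript as untreated WT cells. Gadd45a had 2281 and 1844 normalised counts in the WT untreated libraries (replicates 1 and 2) and 824 and 596 in the Cfp1-/- untreated libraries, so that the lowest WT value was above the highest Cfp1-/- value. The log2 fold change was -1.51 (SE 0.28, 95% interval -2.13 to -0.89), with an adjusted p of 0.00328 in edgeR's quasi-likelihood test. The call remained without any 1 library, with log2 fold changes from -1.74 to -1.29.

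Gadd45b and Gadd45g were not called between the untreated lines. Gadd45b had 187 and 230 normalised counts in WT and 159 and 146 in Cfp1-/- untreated libraries, with a log2 fold change of -0.42 (SE 0.44, 95% interval -1.41 to 0.57, adjusted p = 0.484). The groups did not overlap, but the interval takes in no change and a more than 2-fold fall. Gadd45g had 116 and 181 counts in WT and 142 and 178 in Cfp1-/- libraries, with the 2 groups overlapping (log2 fold change 0.14, SE 0.39, adjusted p = 0.81). Of all 15758 genes tested, 34.0% were called in this comparison, and 1 of the 3 members was.

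**Figure D2:**
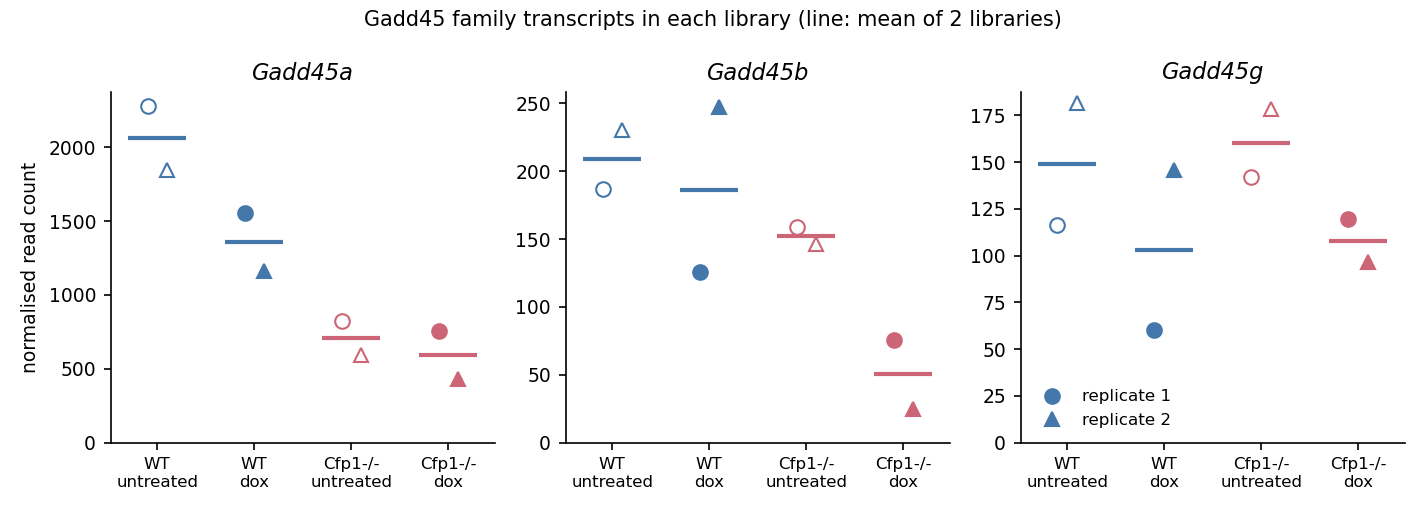
Normalised read count of each gene (y axis, from 0) in the 4 groups. Points are libraries (circle, replicate 1; triangle, replicate 2; filled, doxorubicin) and lines are means of 2 libraries. Gadd45a is lower in both Cfp1-/- groups than in either WT group, and Gadd45b is lowest in Cfp1-/- doxorubicin cells.

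None of the 3 genes rose with doxorubicin in WT cells by the test, and all 3 fitted changes were below 0, except that Gadd45b stood above 0 with total-count scaling (0.20), without WT untreated replicate 2 (0.034) and without WT doxorubicin replicate 1 (0.29), and Gadd45g without WT doxorubicin replicate 1 (0.016). Gadd45a, with 2281 and 1844 normalised counts untreated, had 1558 and 1163 after doxorubicin, and every treated value was below every untreated one. The log2 fold change was -0.56 (SE 0.27, 95% interval -1.16 to 0.05), or 0.68 of the untreated level, and did not pass the test (adjusted p = 0.119). Replicate 1 was above replicate 2 in all 4 groups for Gadd45a, and both replicates moved alike, by -0.55 and -0.67. With the replicate number as a block, the log2 fold change was -0.56 (SE 0.14) and passed, with an adjusted p of 0.00524 in edgeR. In that fit 55.9% of all genes tested were called.

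Gadd45b showed no common direction in WT cells, with 187 and 230 counts untreated and 126 and 247 after doxorubicin (log2 fold change -0.11, SE 0.44, 95% interval -1.10 to 0.88, adjusted p = 0.855). The treated libraries lay on either side of both untreated ones. Gadd45g had 116 and 181 counts untreated and 60.3 and 146 treated, with overlapping groups (log2 fold change -0.47, SE 0.40, 95% interval -1.37 to 0.43, adjusted p = 0.36). Without WT doxorubicin replicate 2 the change of Gadd45g was -1.26 and passed (adjusted p = 0.0324), and without WT doxorubicin replicate 1 it was 0.016 (adjusted p = 0.982). In WT cells 48.3% of all genes tested responded to doxorubicin, and 0 of the 3 members did in edgeR, 0 at an unadjusted p under 0.05 and 0 in DESeq2's Wald test, against 1 (Gadd45a) in edgeR with the replicate block.

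In Cfp1-/- cells, Gadd45b fell with doxorubicin, to 0.34 of its untreated level. It had 159 and 146 normalised counts in the untreated libraries and 75.6 and 25.1 in the treated ones, from 74 and 26 raw counts. The treated libraries were both below the untreated ones but stood far apart from each other. The log2 fold change was -1.56 (SE 0.47, 95% interval -2.62 to -0.49, adjusted p = 0.0217 in edgeR). Its size rested on the treated replicates, being -2.58 without Cfp1-/- doxorubicin replicate 1 and -0.96 (adjusted p = 0.127) without Cfp1-/- doxorubicin replicate 2. The call was also lost without Cfp1-/- untreated replicate 1 (adjusted p = 0.0712) or replicate 2 (0.057), and with the first technical replicates alone (log2 fold change -1.38, adjusted p = 0.0568).

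Gadd45a had 824 and 596 counts in untreated and 757 and 434 in treated Cfp1-/- libraries, which overlapped (log2 fold change -0.21, SE 0.28, 95% interval -0.83 to 0.41, adjusted p = 0.558). Gadd45g had 142 and 178 counts untreated and 119 and 96.4 treated. Its treated values were both below its untreated ones, but the change did not pass (log2 fold change -0.53, SE 0.40, 95% interval -1.41 to 0.36, adjusted p = 0.302). Doxorubicin called 48.8% of all genes tested in Cfp1-/- cells, and 1 of the 3 members.

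The 6 fitted doxorubicin changes (3 genes in 2 lines) were all below 0 with TMM scaling and every library in the fit. Without Cfp1-/- untreated replicate 1 or Cfp1-/- doxorubicin replicate 2, Gadd45a in Cfp1-/- cells stood at 0.032 and 0.14. Scaling by total counts raised the median over all genes by 0.31 in WT and 0.21 in Cfp1-/- cells on the log2 scale, and then Gadd45b in WT cells stood at 0.20. With that scaling Gadd45a in WT cells was at -0.24 (adjusted p = 0.475), and Gadd45b in Cfp1-/- cells remained called at -1.35 (adjusted p = 0.0376).

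A difference between the 2 responses was not detected for any member. For Gadd45b the response of Cfp1-/- cells was lower than that of WT cells by a log2 difference of -1.45 (SE 0.65, 95% interval -2.90 to -0.00057), with an unadjusted p of 0.0499 and an adjusted p of 0.471. For Gadd45a the difference was 0.34 (SE 0.39, 95% interval -0.52 to 1.21, adjusted p = 0.812), and for Gadd45g it was -0.06 (SE 0.56, 95% interval -1.32 to 1.20, adjusted p = 0.989). These intervals span more than 2-fold differences. In edgeR 0 of the 3 members were called, 1 had an unadjusted p under 0.05 and DESeq2 called 0, against 0.235% of all genes tested called in edgeR.

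**Figure D3:**
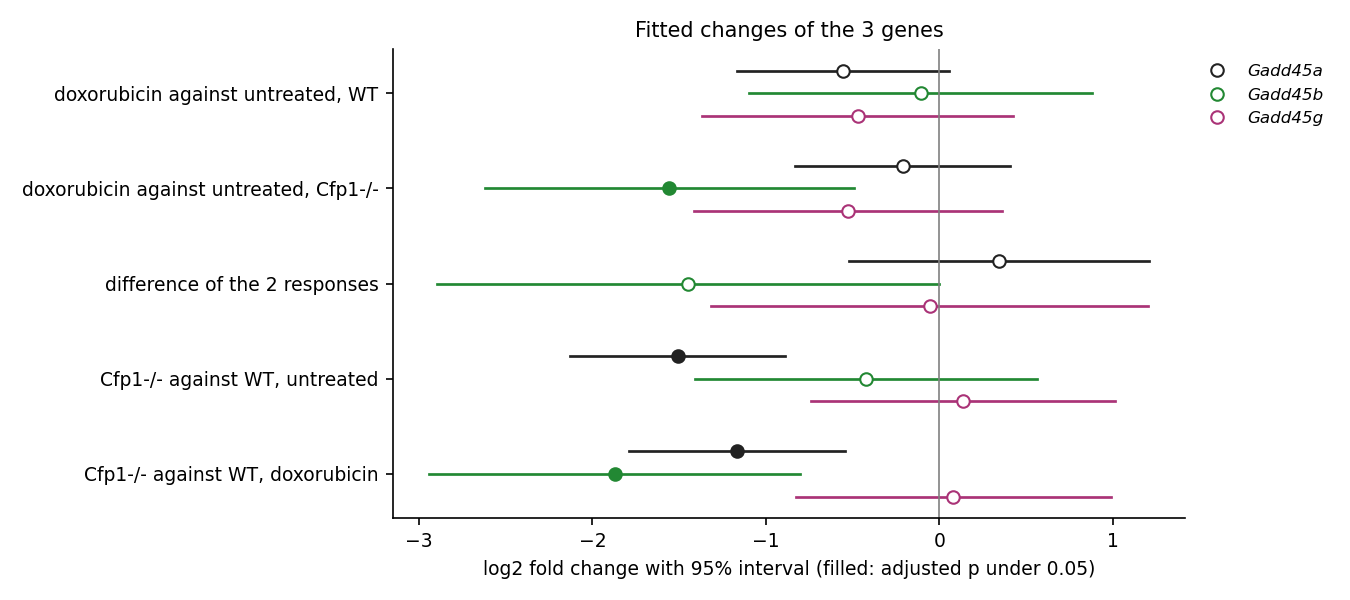
Fitted log2 fold changes (x axis) of the 3 genes in the 5 comparisons (y axis), with 95% intervals. Filled points have an adjusted p under 0.05. Filled points are Gadd45b for doxorubicin in Cfp1-/- cells (-1.56), Gadd45a between untreated lines (-1.51), and Gadd45a (-1.17) and Gadd45b (-1.87) between treated lines.

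Under doxorubicin, both Gadd45a and Gadd45b were lower in Cfp1-/- than in WT cells. Gadd45a had 1558 and 1163 counts in WT and 757 and 434 in Cfp1-/- treated libraries, without overlap (log2 fold change -1.17, SE 0.28, 95% interval -1.79 to -0.54, adjusted p = 0.0147). The call was lost without WT doxorubicin replicate 1 (-0.95, adjusted p = 0.0646) and without Cfp1-/- doxorubicin replicate 2 (-0.81, adjusted p = 0.0928). Gadd45b had 126 and 247 counts in WT and 75.6 and 25.1 in Cfp1-/- treated libraries, also without overlap (log2 fold change -1.87, SE 0.48, 95% interval -2.94 to -0.80, adjusted p = 0.0194). That call was lost without WT doxorubicin replicate 2 (-1.30, adjusted p = 0.119) and without Cfp1-/- doxorubicin replicate 2 (-1.27, adjusted p = 0.0992), and without Cfp1-/- doxorubicin replicate 1 the change was -2.89. Gadd45g, with 60.3 and 146 counts in WT and 119 and 96.4 in Cfp1-/- treated libraries, was not called (log2 fold change 0.08, SE 0.40, 95% interval -0.82 to 0.99, adjusted p = 0.903). Over all genes tested, 25.9% were called, and 2 of the 3 members were. The comparisons between lines share libraries with those of doxorubicin, so they are not separate evidence. The summed primitive endoderm markers (mostly Pdgfra in Cfp1-/- cells) and neural markers given above also differed between the lines without overlap, in untreated and in treated cells. The fibroblast or feeder markers did so in untreated cells. Some ES cell markers were also called between the lines, in both directions.

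In replicate 1 of WT doxorubicin and of Cfp1-/- doxorubicin, the second technical replicate differed from the first beyond sampling noise over all genes (chi-square per degree of freedom 9.61 and 42.9, against 0.998 to 1.05 in the other 6 libraries). For Gadd45a the counts of the first and second technical replicates were 702 and 487 in the former and 437 and 304 in the latter. Against the split of all counts of the library, the first was low for Gadd45a (z of -3.04 and -3.97). Gadd45b had 62 and 34 counts in the former and 56 and 18 in the latter (z of 0.26 and 1.78). Without those second technical replicates all 15 member comparisons kept their direction and their side of the threshold.

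Most genes listed as cell cycle and DNA synthesis partners of Gadd45 proteins fell with doxorubicin. The list held Cdkn1a, Cdk1, Ccnb1, Pcna, Npm1 and Gadd45gip1, so that not all of it are cell cycle genes. Of the 6 listed, 1 rose and 5 fell in WT cells with doxorubicin, and 1 rose and 4 fell in Cfp1-/- cells. Over all genes tested, 26.5% rose and 21.8% fell in WT, and 27.8% rose and 21.0% fell in Cfp1-/- cells. The median log2 fold change of the list was -0.70 in WT and -0.83 in Cfp1-/- cells, against 0.06 and 0.01 over all genes. Cdkn1a, which encodes p21, went from 131 and 226 normalised counts to 1805 and 1655 in WT cells (log2 fold change 3.33, SE 0.26, adjusted p = 1.3e-05). In Cfp1-/- cells it went from 338 and 263 to 1294 and 1165 (2.07, SE 0.24, adjusted p = 0.000124). All treated libraries were far above all untreated ones. The difference of these responses was -1.26 (SE 0.34) and did not pass in edgeR (adjusted p = 0.229, or 0.0703 with the replicate block), but it did in DESeq2's Wald test (adjusted p = 0.0357).

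The mitotic kinase Cdk1 fell by 1.07 (SE 0.16) on the log2 scale in WT and by 1.15 (SE 0.17) in Cfp1-/- cells, and its cyclin Ccnb1 by 1.37 (SE 0.18) and 1.11 (SE 0.18). Gadd45gip1, a mitochondrial ribosome protein that was named for binding Gadd45g, fell by 0.77 (SE 0.16) and 0.85 (SE 0.16). Pcna, the sliding clamp of DNA replication, fell by 0.81 (SE 0.16) in Cfp1-/- cells. In WT cells it fell by 0.45 (SE 0.16, adjusted p = 0.0445), a call that was lost without WT untreated replicate 1 (-0.53) or replicate 2 (-0.38) or WT doxorubicin replicate 1 (-0.35), and with total-count scaling (-0.14). Before treatment, 4 of the 6, among them Cdk1, Ccnb1 and Pcna, were lower in Cfp1-/- than in WT cells (16.1% of all genes tested). Cdkn1a was higher (17.9% of all genes tested). These line differences were small (-0.62 for Cdk1, -0.56 for Ccnb1, -0.60 for Pcna and 0.79 for Cdkn1a). All 4 calls were lost without Cfp1-/- untreated replicate 1 (-0.50, -0.40, -0.43 and 0.61), those of Cdk1, Ccnb1 and Pcna also without WT untreated replicate 2 (-0.64, -0.53 and -0.52), and those of Cdk1, Ccnb1 and Cdkn1a without WT untreated replicate 1 (-0.58, -0.57 and 0.45). With total-count scaling the 3 falls were also lost (-0.42, -0.36 and -0.41). Cdkn1a was 1.22 and called without WT untreated replicate 2, and not called without either Cfp1-/- doxorubicin library (0.79 each).

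A list of 17 genes of the p38 and JNK pathways held Map3k4, other kinases and Dusp phosphatases. In WT cells 5 of the 17 rose and 6 fell, against 26.5% and 21.8% of all genes tested. In Cfp1-/- cells 4 rose and 2 fell, against 27.8% and 21.0% of all genes. The medians of the list were -0.15 and 0.26. The stress kinase Mapk9 (JNK2) rose by a log2 fold change of 0.75 (SE 0.12) in WT and 1.17 (SE 0.12) in Cfp1-/- cells, while Mapk8 (JNK1) fell by 0.90 (SE 0.12) and 0.58 (SE 0.12). The kinase Map2k4, which activates JNK, rose by 0.55 (SE 0.11) and 0.67 (SE 0.11). Mapk13 (p38 delta) rose by 1.35 (SE 0.25) in WT cells and by 0.87 (SE 0.25, adjusted p = 0.0177) in Cfp1-/- cells. The latter call was lost without Cfp1-/- untreated replicate 1 (0.82) or replicate 2 (0.89) or Cfp1-/- doxorubicin replicate 2 (0.79). Map3k5 (ASK1) rose by 0.59 (SE 0.17) in WT and 0.77 (SE 0.17) in Cfp1-/- cells. In WT cells that call was lost without WT untreated replicate 1 (0.61) or replicate 2 (0.55) or WT doxorubicin replicate 1 (0.53). Map2k6, a kinase of p38, fell by 1.27 (SE 0.23) in Cfp1-/- cells. Its fall of 0.63 in WT cells (SE 0.23, adjusted p = 0.0478) passed in only 1 of the 8 fits that leave out a library, that without WT doxorubicin replicate 2. It was also lost with total-count scaling (-0.32), with no filter on low counts and with the 2 WT groups fitted alone.

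Map3k4 itself had 2661 and 2828 normalised counts in WT untreated and 2053 and 1979 in WT doxorubicin libraries, and 1602 and 1616 in Cfp1-/- untreated and 1737 and 1898 in Cfp1-/- doxorubicin libraries. It was lower in untreated Cfp1-/- than in untreated WT cells, as Gadd45a was (log2 fold change -0.74, SE 0.12, adjusted p = 0.00179). It fell with doxorubicin in WT cells (-0.40, SE 0.12, adjusted p = 0.0202). That call was lost with total-count scaling (-0.08) and without any 1 of the 4 WT libraries (-0.44 to -0.37, adjusted p from 0.0555 to 0.106). In Cfp1-/- cells it did not pass (0.22, SE 0.12, adjusted p = 0.159).

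Among the 14 partners in DNA demethylation and excision repair, 4 rose and 2 fell in WT cells (26.5% and 21.8% of all genes tested). In Cfp1-/- cells 4 rose and 1 fell (27.8% and 21.0% of all genes). The medians of the list were 0.07 and -0.07. Ercc5, the XPG nuclease, rose from 1505 and 1827 to 5975 and 5967 counts in WT cells and from 1282 and 1140 to 4403 and 4630 in Cfp1-/- cells (log2 fold changes 1.89 and 1.94, SE 0.14 each). The methylcytosine dioxygenase Tet3 rose by 1.74 (SE 0.17) and 1.82 (SE 0.17), and its relative Tet2 fell by 2.05 (SE 0.44) and 1.83 (SE 0.44). The fall of Tet2 in Cfp1-/- cells was -1.43 (adjusted p = 0.0668) without Cfp1-/- doxorubicin replicate 2. The cytidine deaminase Apobec1 rose by 2.94 (SE 0.26) in WT and 1.49 (SE 0.24) in Cfp1-/- cells, and the difference did not pass (-1.45, SE 0.35, adjusted p = 0.174) in edgeR except with the replicate block (adjusted p = 0.0464), and passed in DESeq2 (adjusted p = 0.0139). Tdg, the glycosylase that excises oxidised methylcytosine, fell by 0.92 (SE 0.20) in WT cells and was at -0.49 (SE 0.19, adjusted p = 0.0617) in Cfp1-/- cells, where it passed with the replicate block (adjusted p = 0.0348) and in DESeq2 (adjusted p = 0.0397). Unlike Gadd45a, Tdg was higher in untreated Cfp1-/- than in untreated WT cells, by 0.65 (SE 0.20, adjusted p = 0.0285), a call that was lost without WT untreated replicate 1 (0.40) or either Cfp1-/- untreated library (0.62 and 0.70). The repair glycosylase Mbd4 was called in both lines (0.38, SE 0.14, adjusted p = 0.0424, and 0.49, SE 0.14, adjusted p = 0.0143), although in WT cells not in DESeq2 (adjusted p = 0.0905). In WT cells it was called in 0 of the 8 fits that leave out a library, and in Cfp1-/- cells the call was lost without Cfp1-/- untreated replicate 1 (0.48) or replicate 2 (0.48) or Cfp1-/- doxorubicin replicate 2 (0.46).

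Regulators described for Gadd45 genes moved in both directions. Of 20 listed, 5 rose and 7 fell in WT cells, against 26.5% and 21.8% of all genes tested. In Cfp1-/- cells 6 rose and 8 fell, against 27.8% and 21.0% of all genes. The medians of the list were -0.21 and -0.35. Smad3, a TGF-beta effector, rose by 2.18 (SE 0.15) in WT and 2.11 (SE 0.15) in Cfp1-/- cells, and the stress factor Foxo3 by 2.03 (SE 0.15) and 1.56 (SE 0.15). Ddit3 (CHOP) rose by 1.34 (SE 0.25) and 1.21 (SE 0.26), whereas Foxo4 fell by 1.32 (SE 0.20) and 1.55 (SE 0.21). Pou2f1, the octamer factor Oct-1, fell by 1.33 (SE 0.19) and 0.87 (SE 0.18). Atf4, the effector of the integrated stress response, had 3567 and 4868 counts in WT untreated and 779 and 852 in Cfp1-/- untreated libraries (log2 fold change -2.34, SE 0.18, adjusted p = 5.95e-05). It was lower in Cfp1-/- than in WT cells also under doxorubicin (-1.88, SE 0.18, adjusted p = 0.000317), as Gadd45a was. With doxorubicin Atf4 fell by 1.13 (SE 0.18) in WT cells and by 0.67 (SE 0.18, adjusted p = 0.012) in Cfp1-/- cells. The latter call was lost with total-count scaling (-0.46) and without Cfp1-/- untreated replicate 2 (-0.62) or Cfp1-/- doxorubicin replicate 2 (-0.62).

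Trp53, which encodes p53, had 2473 and 2283 counts in WT untreated and 2636 and 2286 in WT doxorubicin libraries, which overlapped (log2 fold change 0.10, SE 0.15, adjusted p = 0.626). In Cfp1-/- cells it had 4669 and 4324 untreated and 3408 and 2719 treated (-0.51, SE 0.15, adjusted p = 0.0173). That call was lost without Cfp1-/- untreated replicate 1 (-0.46) or Cfp1-/- doxorubicin replicate 2 (-0.35) and with total-count scaling (-0.30). The untreated Trp53 level was higher in Cfp1-/- than in WT cells (0.95, SE 0.15, adjusted p = 0.00159), while that of Gadd45a was lower. RNA levels do not report p53 protein.

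Tested were also 7 other genes that belong to other families. All of them but Nthl1 carry a growth arrest or DNA damage name. In WT cells 5 rose and 0 fell, against 26.5% and 21.8% of all genes tested. In Cfp1-/- cells 5 rose and 1 fell, against 27.8% and 21.0% of all genes. The medians of the list were 1.34 and 1.03. Ddit4 (REDD1, an inhibitor of mTORC1) rose from 129 and 245 to 1309 and 1256 counts in WT and from 112 and 134 to 958 and 861 in Cfp1-/- cells (2.83 and 2.92, SE 0.27 each). Gas1, a membrane protein of quiescent cells, rose by 1.44 (SE 0.30) and 1.79 (SE 0.30), and the DNA glycosylase Nthl1 by 0.85 (SE 0.17) and 1.03 (SE 0.16). Gas6, a ligand of the TAM receptors, rose by 1.43 (SE 0.24) in WT and 0.77 (SE 0.24, adjusted p = 0.0227) in Cfp1-/- cells, and the latter call was lost without any 1 of the 4 Cfp1-/- libraries (0.63 to 0.89). Among the 4 inhibitors of p38 or p53 signalling, Mdm2, the ubiquitin ligase of p53, rose by 2.69 (SE 0.18) and 2.35 (SE 0.17). Ppm1d (the phosphatase Wip1) rose by 1.51 (SE 0.15) and 1.33 (SE 0.15). Dusp4 fell by 1.15 (SE 0.32, adjusted p = 0.0146) in WT and it fell by 1.88 (SE 0.35) in Cfp1-/- cells. In WT cells its change was -0.72 and not called without WT doxorubicin replicate 1, -1.77 without WT doxorubicin replicate 2 and -0.83 and not called with total-count scaling.

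Over the 67 distinct genes of these lists, 21 rose and 21 fell in WT cells (26.5% and 21.8% of all genes tested). In Cfp1-/- cells 22 rose and 17 fell (27.8% and 21.0% of all genes tested). The responses of the lines differed for 0 of the 67 in edgeR, against 0.235% of all genes tested. They differed for 12 at an unadjusted p under 0.05, for 4 in DESeq2's Wald test and for 3 with the replicate block. The shares of all genes under these other settings were not computed, so whether these counts are high cannot be told. The 4 were Cdkn1a, Egr1, Wt1 and Apobec1 and the 3 were the last 3 of these, of which Egr1 and Wt1 are named here after their values were seen. Between untreated lines 14 of the 67 were higher and 19 lower in Cfp1-/- cells (17.9% and 16.1% of all genes tested), and under doxorubicin 9 were higher and 11 lower (15.1% and 10.8%).

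**Figure D4:**
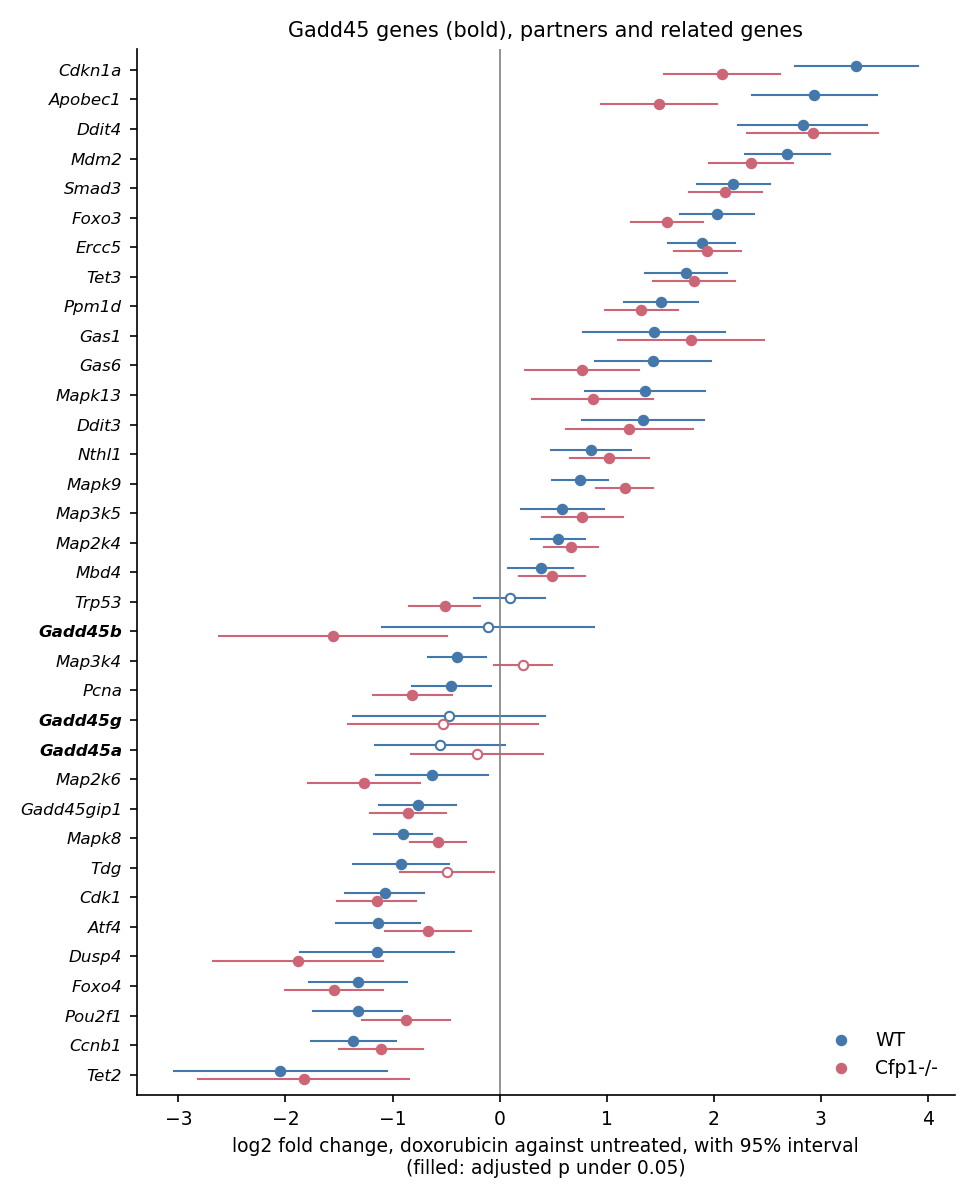
Log2 fold change with doxorubicin (x axis, with 95% intervals) in WT (blue) and Cfp1-/- cells (red) for the 3 Gadd45 genes, in bold, and the partner and related genes named in the text (y axis, sorted by the WT value). Filled points have an adjusted p under 0.05. With every library in the fit the Gadd45 genes lie below 0 (Gadd45b in WT cells stood at 0.20 with total-count scaling), between Trp53 and Map2k6, while Cdkn1a, Apobec1, Ddit4 and Mdm2 are at the top.

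The nearest genes in the tables on either side of each member did not all move with it. Next to Gadd45a, Gng12, 13745 bases away, was higher in untreated Cfp1-/- than in untreated WT cells (206 and 245 normalised counts in WT, 782 and 592 in Cfp1-/-, log2 fold change 1.64, SE 0.21). Serbp1, 229521 bases away, was lower like Gadd45a itself (-0.88, SE 0.13). Of the genes beside Gadd45b, Lmnb2 fell with doxorubicin in Cfp1-/- cells (-0.56, SE 0.17). Gng7 rose there (1.31, SE 0.42), from 28.7 and 31.3 to 58.2 and 86.8 normalised counts. Both calls were lost without Cfp1-/- untreated replicate 2 (-0.49 and 1.36) or Cfp1-/- doxorubicin replicate 2 (-0.44 and 1.00), that of Gng7 also without Cfp1-/- untreated replicate 1 (1.25), and that of Lmnb2 with total-count scaling (-0.35). Sema4d and Diras2, beside Gadd45g, both rose with doxorubicin in WT cells (1.09, SE 0.24, and 2.04, SE 0.58). Both also rose in Cfp1-/- cells (1.05, SE 0.24, and 2.34, SE 0.53). Gadd45g was called in neither line. Normalised counts of Diras2 were low, at 5.1 and 12.5 untreated and 34.1 and 34.9 treated in WT cells. In Cfp1-/- cells they were 20.4 and 6.8 untreated and 63.3 and 70.4 treated. The call of Diras2 in WT cells was lost without WT untreated replicate 1 (adjusted p = 0.0987) and with first technical replicates only (adjusted p = 0.0971).

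The genes most like each member were ranked over the 8 libraries by the root mean square difference of log2 normalised counts, each centred on its own mean, among 9499 genes with a mean of at least 200 normalised counts. Nearest to Gadd45a were the chaperone Hsp90aa1 (0.17), the nuclease Ankle1 (0.20), the scaffold protein Gipc1 (0.22), the microtubule protein Slain2 (0.23) and the splicing factor Nova1 (0.23), where the SD of Gadd45a was 0.84. Hsp90aa1 averaged 116757, 80743, 46410 and 37441 normalised counts in WT untreated, WT doxorubicin, Cfp1-/- untreated and Cfp1-/- doxorubicin cells, a similar step between lines and a smaller one with doxorubicin. Among the nearest to Gadd45b, whose SD was 1.06, were Fgfbp1 (0.35), which encodes a carrier of fibroblast growth factors, the ERK phosphatase Dusp6 (0.36), the urokinase receptor Plaur (0.40) and the glycosyltransferase B3gnt7 (0.43). Nearest to Gadd45g, whose SD was 0.52, were the enolase Eno3 (0.12), Frmd4b (0.18), the protease inhibitor Cst3 (0.20), Mpdz (0.21) and the folate hydrolase Ggh (0.22). With profiles divided by their SD, 5 of the 15 neighbours were found again, and with a pseudocount of 10 in place of 1, 10 were. The 8 libraries of all these profiles are shared, including their depth.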

How the data were processed

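RNA-Seq of 16 samples was analysed, which are 2 technical replicates of 2 biological replicates in 4 groups. The authors aligned reads with STAR (version 2.2.1 in the submitters' processing notes, another version in the paper) to mouse NCBIM37 (mm9) and counted reads on the sense strand over Ensembl exons with HTSeq-count in union mode. The deposited raw table holds counts per technical replicate, which were summed here. The deposited normalised table is a signal that the authors made for each biological replicate by dividing its summed counts by DESeq's size factor, and its values are the normalised counts printed. Totals ran from 14880589 to 29422711 counts, and 3 counts or fewer were taken as the floor.

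Changes were fitted with edgeR 4.0.16 in R 4.3.3 (filterByExpr, TMM, 1 coefficient per group, glmQLFit and glmQLFTest) on 15758 genes, with Benjamini-Hochberg adjustment over all of them, and called at an adjusted p-value under 0.05. Standard errors came from the test statistic, and intervals are 95%. Whether groups overlap is given as a description only. The share of all genes whose groups did not overlap was not computed. The script was tested on simulated data. DESeq2 1.42.0, 2 other scalings, no low-count filter, technical replicates, the 2 groups alone, a replicate block and each library left out served as alternatives. The fits without the second technical replicates that differ were added after seeing the data. Same-numbered replicates deviated together in all 6 pairs of groups (r from 0.14 to 0.451). Only the replicate-block fits took the numbers to pair the samples. The main fit, which gave the SEs and calls printed unless the block is named, ignored this pairing. What same-numbered replicates share is stated neither in the labels nor in the paper.

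The members and gene lists were chosen with earlier results of these data known. Named from the lists were up to 6 genes each that doxorubicin changed in both lines, by the size of the WT change, and Map3k4, Trp53, Cdkn1a, Pcna, Cdk1, Ccnb1 and Tdg. The 5 most similar genes per member and the nearest gene on each side were also named. One of the similar genes is not reported here. For a symbol on several identifiers (Map3k4, Dusp8), the one with most counts was used. Levels between genes were compared per kb of the exon union in the NCBIM37 annotation, which held 22324 of the 22375 identifiers, 21985 with the same coordinates.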

Additional observations from a re-analysis of the deposited data

Results flagged for a closer look

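Map3k4, the kinase that Gadd45 proteins bind, was lower after doxorubicin in both WT libraries than in both untreated ones, and higher in both Cfp1-/- libraries than in both untreated ones. With total-count scaling the log2 fold change in WT cells was only -0.08 and was not called. The difference of the 2 responses was 0.62 on the log2 scale (SE 0.17) and did not pass edgeR's quasi-likelihood test (adjusted p = 0.235), nor did it with the replicate block (adjusted p = 0.0926).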

How the results depend on the processing

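Of the 132 values of the 15 member comparisons under other processing, 126 kept their direction and their side of the threshold. Most of the 15 were not called in the main fit, so that keeping their side meant staying uncalled. The fits that leave out a library are not among the 132. In those, 14 of 120 values reversed their direction. With the replicate block, doxorubicin lowered Gadd45a in WT cells (-0.56), also without the second technical replicates that differ (-0.62), and the response difference of Gadd45g was 0.014. The block changed no other member call. With first technical replicates only, Gadd45b in Cfp1-/- cells (-1.38) lost its call and Gadd45g between treated lines was -0.024. With total-count scaling Gadd45b in WT cells was 0.20.

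Each library was left out in turn, with the lone sample left in its group assumed to vary like the others. Log2 fold changes of Gadd45a lay from -0.79 to -0.37 for doxorubicin in WT cells, from -0.69 to 0.14 in Cfp1-/- cells, from -0.13 to 0.70 for the response difference, from -1.74 to -1.29 between untreated and from -1.64 to -0.81 between treated lines. For Gadd45b the same ranges were -0.69 to 0.29, -2.58 to -0.96, -2.46 to -0.85, -0.56 to -0.27 and -2.89 to -1.27. For Gadd45g they were -1.26 to 0.016, -0.71 to -0.37, -0.55 to 0.73, -0.14 to 0.48 and -0.41 to 0.86. The cause of these shifts was not tested. Of the 1802 values under other processing for called changes of named partners and neighbours, 152 lost their call and 0 reversed.

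With 2 libraries a group, every 95% interval of the 3 genes was wider than 1 log2 unit, and Gadd45b in treated Cfp1-/- cells rests on 26 counts in 1 library. The order of Gadd45a, Gadd45b and Gadd45g per kb held in 5 of 8 libraries, and in 4 when the longest transcript was used.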
